A study of Sus scrofa with 16 samples.

Results

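The response of dystrophic satellite cells (SCs) to differentiation medium was measured as the change in transcript levels between 4 differentiated (DIFF) and 4 proliferating (PROL) cultures of the same 4 DMD piglets, across all genes. These 8 libraries were chosen because their labels give the genotype DMD, and they are 8 of the 16 libraries of the study. The animals are named 14DMD, 15DMD, 16DMD and 17DMD, and every animal gave 1 library in each state, so that each DIFF library was compared with the PROL library of its own animal. All were male piglets aged 3 days that carry a deletion of *DMD* exon 52, in both states alike. The SCs came from intercostal muscle, were depleted of CD31+ and CD45+ cells and then selected by magnetic sorting for ITGB1, NCAM1 and M-cadherin. RNA was taken at passage 6. PROL cultures grew in Ham's F10 medium with 20% fetal bovine serum and basic fibroblast growth factor, and DIFF cultures in the same base medium with 5% horse serum and no listed growth factor. The RNA methods of the study give 10 days of differentiation and its culture methods 7 days, and the labels give no day. Wild-type (WT) SCs of 4 other piglets, handled alike, served to test where the dystrophic response differed.

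SCs are the stem cells of skeletal muscle. When growth factors are withdrawn, their progeny leave the cell cycle, switch on *MYOG* under the lead of *MYOD1* and *MYF5*, fuse and assemble sarcomeres, the contractile units built of thick myosin and thin actin filaments that are anchored at the Z-disc. Dystrophin, the product of *DMD*, joins this cytoskeleton to a complex of sarcoglycans and dystroglycan in the cell membrane, and its loss leaves muscle fibers prone to damage by contraction.

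Each library was a 3′ mRNA-seq library of 25 ng total RNA, measured as a technical duplicate whose 2 columns were summed. The DMD libraries held 1477772 to 1664700 counts in PROL and 1434476 to 1781174 in DIFF, with a count in 2332 to 2449 genes of each library. Levels are given as counts scaled to a common library size, in CPM, normalized with TMM (trimmed mean of M-values) factors, and 4 values in a row stand in the order 14DMD, 15DMD, 16DMD and 17DMD. CPM of a 3′ library is not divided by transcript length, so levels are compared between libraries and not between genes. The PROL library of 17DMD stood apart. *RN18S*, the gene of the small ribosomal RNA, took 20.4% of its counts against 6.94% to 11.7% in the other 7 DMD libraries, and its technical duplicates differed most. Leaving out animal 17DMD gave 552 called genes in place of 545. The targeted gene, *DMD*, had 24 to 32 counts in each PROL library and 30 to 48 in each DIFF library. Reads from the 3′ end of a transcript lie outside exon 52, so these counts do not check the deletion.

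Of 1886 genes with enough counts to be tested, 545 (28.9%) were called, that is, passed an adjusted p of 0.05 with an absolute log2 fold change over 0.6 in edgeR's quasi-likelihood test with the animal as a block. Of these, 304 rose in DIFF (16.1% of the genes tested) and 241 fell (12.8%). The change exceeded 4-fold in 63 genes that rose and 50 that fell, and 8-fold in 21 and 18. Genes that rose held 6.55% to 7.77% of all counts in the PROL libraries and 19.4% to 20.5% in the DIFF libraries, while genes that fell went from 7.18% to 8.61% down to 2.81% to 3.07%. The 4 DIFF libraries lay entirely above or entirely below the 4 PROL libraries in 766 genes (40.6%). Of all genes tested, 1014 moved in the same direction in all 4 animals, among them 536 of the called genes, which the blocked test had chosen in part for that. The median log2 difference of the genes that rose lay between 1.14 and 1.37 in the 4 animals, and that of the genes that fell between −1.19 and −1.12. The direction of these medians and of the count shares above follows from choosing the genes in the same 8 libraries. In a principal component analysis of the 8 libraries, the first component held 68.4% of the variance and separated the states, with scores of −22.6 to −17.9 in PROL and 19.4 to 22.5 in DIFF. The median log2 fold change over all genes tested was 0.01, and the medians of gene lists below are to be read against it. Counts of list members that rose or fell are likewise to be read against 16.1% and 12.8% of all genes tested.

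**Figure D1:**
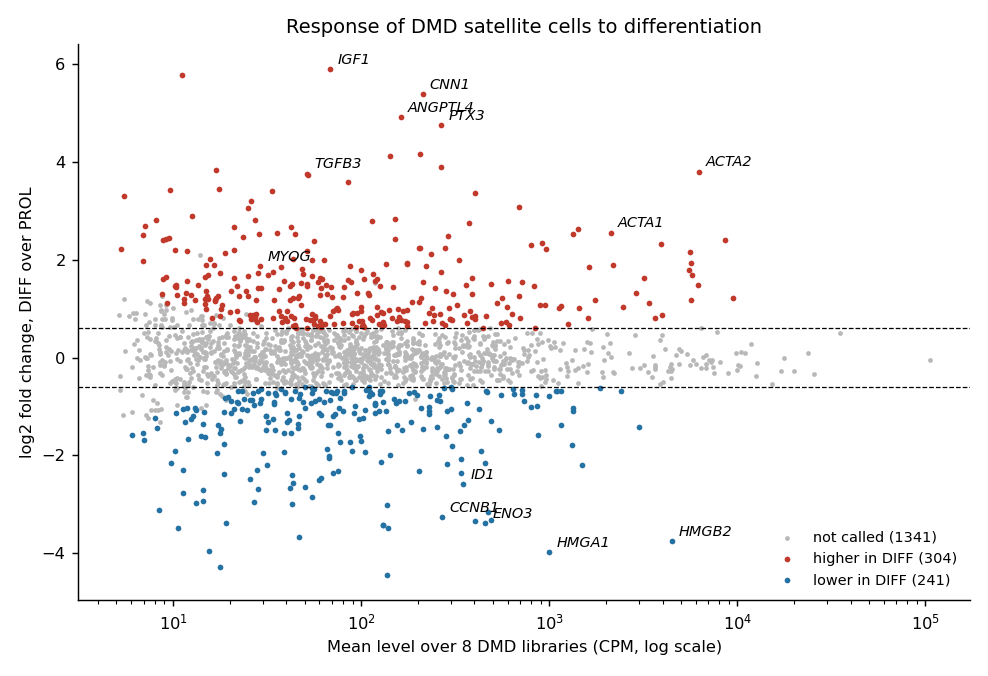
Log2 fold change of DIFF over PROL (vertical axis) against the mean level in CPM over the 8 DMD libraries (horizontal log axis) for the 1886 genes tested. Points in colour are the 304 genes that rose and the 241 that fell, and the dashed lines mark a log2 fold change of 0.6. Of the labelled genes, *IGF1*, *CNN1*, *ANGPTL4* and *PTX3* stand highest, and *HMGA1* and *HMGB2* lie lowest.

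Genes of cell division fell almost without exception. Of 14 mitosis genes tested, 13 fell and none rose (median log2 fold change −2.86), and of 13 genes of DNA replication and the G1/S transition, 12 fell (median −2.15). *CCNB1*, the cyclin that drives entry into mitosis, stood at 497, 518, 447 and 495 CPM in PROL and at 60.2, 61.8, 33.1 and 51.2 CPM in DIFF. Its fall, a log2 fold change of −3.27 ± 0.13 (standard error (SE), n = 4 animals) with an adjusted p of 1.07e-11, was shared by its partner kinase *CDK1* (−3.42 ± 0.30) and by cyclin A2, *CCNA2* (−3.43 ± 0.22). *CDC20*, which activates the ligase that ends mitosis, went from 219–300.2 CPM to 14.4–28.5 CPM. *AURKB*, the kinase that corrects chromosome attachment, fell by 3.67 on the log2 scale. Its 4 DIFF libraries spread over 1.40–12.8 CPM, with 14DMD lowest and 17DMD highest. *TOPOII*, the listed name of topoisomerase II, fell from 689–769 CPM to 43.2–96.8 CPM, with no overlap between the states. The DIFF library of 16DMD was the lowest of the 4 for *CCNA2*, *CDK1*, *TOPOII* and *CCNB1*. *MKI67*, the gene of the proliferation marker Ki-67, was the 1 mitosis gene not called. It stood at 379, 394, 492 and 353 CPM in PROL and 420.0, 329, 374 and 351 CPM in DIFF, so that the states overlapped (log2 fold change −0.14 ± 0.10, adjusted p = 0.306).

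Replication genes moved in the same direction with smaller changes. *PCNA*, the sliding clamp of the DNA polymerases, went from 343, 305, 368 and 335 CPM in PROL to 85.4, 62.95, 51.8 and 71.1 CPM in DIFF, a log2 fold change of −2.33 ± 0.14 (adjusted p = 9.06e-10). The maintenance methyltransferase *DNMT1* had a log2 fold change of −2.07 and the transcription factor *MYBL2* of −2.32. In each of these 3 genes the highest DIFF library was below the lowest PROL library. The steepest fall on the list belonged to the histone chaperone *ASF1B*, with 26.5–36.9 CPM in PROL and 0–4.32 CPM in DIFF. The cyclin *CCND2* was the exception. It was not called, at 652, 614, 818 and 586 CPM in PROL and 1063, 963, 750.1 and 1019 CPM in DIFF (log2 fold change 0.50 ± 0.14, adjusted p = 0.0196), and was lower in DIFF in 16DMD alone. Without 16DMD it was called higher, at a log2 fold change of 0.71.

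Chromatin proteins of dividing cells fell with them. Of 11 such genes tested, 9 fell, with a median log2 fold change of −1.78. In all 11 the DIFF libraries lay below the PROL libraries, while the states did not overlap in 40.6% of all genes tested. *HMGA1*, an architectural protein that bends AT-rich DNA, went from 1994, 1706, 1543 and 2245 CPM to 96.6, 131, 105 and 144 CPM, a log2 fold change of −3.98 ± 0.11 (adjusted p = 2.84e-13). *HMGB2*, a DNA-bending protein abundant in cycling cells, stood at 9609.6, 7779, 8097 and 7855 CPM in PROL and at 706, 652, 475 and 663 CPM in DIFF (−3.76 ± 0.11). No library of either state came near the other state in these 2 genes. *HMGN2* and *PSIP1*, which bind nucleosomes and chromatin, fell with log2 fold changes of −2.20 and −2.19. Among 17 genes of growth arrest and apoptosis, 5 rose (29.4%) and 1 fell (5.88%), against 16.1% and 12.8% of all genes tested. *MCL1*, which protects cells from apoptosis, rose from 95.97–119.9 CPM to 299–336 CPM. *TXNIP*, an inhibitor of thioredoxin and of glucose uptake, rose by 2.19 and *GADD45G* by 1.43 on the log2 scale. The death receptor *FAS* rose from 16.3–34.1 CPM to 45.5–106 CPM. *P14ARF*, a cell cycle inhibitor of the *CDKN2A* locus, named here as the 1 member that fell and chosen after its values were seen, went from 22.1, 18.96, 25.6 and 18.4 CPM to 5.60, 9.33, 5.76 and 7.11 CPM.

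**Figure D2:**
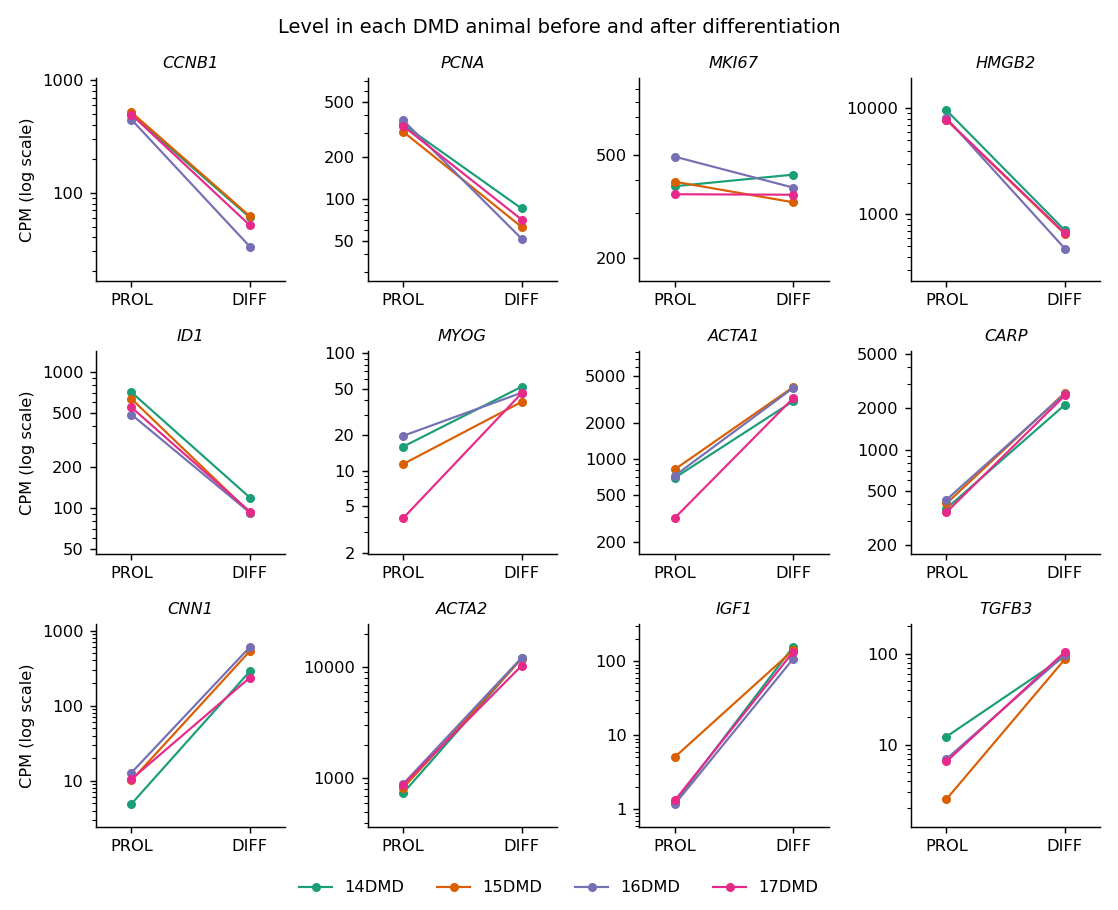
Level in CPM (vertical log axis, with a range of its own in each panel) of 12 genes in PROL and DIFF, with 1 line for each of the 4 DMD animals. *CCNB1*, *PCNA*, *HMGB2* and *ID1* fell in all 4 animals, *MYOG*, *ACTA1*, *CARP*, *CNN1*, *ACTA2*, *IGF1* and *TGFB3* rose in all 4, and the PROL and DIFF ranges of *MKI67* overlap.

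Myogenic regulators did not move together. Of 7 tested, 2 rose (28.6%) and 3 fell (42.9%), against 16.1% and 12.8% of all genes tested. *MYOG*, the regulator that commits myoblasts to terminal differentiation, stood at 16, 11.4, 19.8 and 3.94 CPM in PROL and 51.8, 38.5, 46.1 and 45.5 CPM in DIFF. The log2 fold change was 1.87 ± 0.32 (adjusted p = 0.00017), and the PROL library of 17DMD was the lowest of the 8. *TEAD4*, a DNA-binding partner of the YAP coactivators, rose from 16–28.9 CPM to 43.2–49.8 CPM. *SIX4*, a homeodomain factor that acts early in myogenesis, went from 39.4, 61.9, 41.9 and 60.4 CPM to 15.4, 22.1, 8.64 and 29.9 CPM, a log2 fold change of −1.48 ± 0.25 (adjusted p = 0.000175), and its DIFF libraries lay below the PROL libraries. The enhancer factors *MEF2A* and *MEF2C* were not called. *MEF2A* had a log2 fold change of 0.39 ± 0.12, and *MEF2C* of 0.42 ± 0.18 (adjusted p = 0.0175 and 0.0824). *MEF2C* was higher in DIFF in all animals but 16DMD, without which it was called (adjusted p = 0.0151).

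Too few counts were seen of other regulators for a test. *MYOD1* had 16, 20, 8 and 8 counts in the PROL libraries and 0, 12, 2 and 2 in the DIFF libraries, and was lower in DIFF in every animal. *MYF5* had 6, 8, 6 and 10 counts in PROL and 18, 8, 2 and 12 in DIFF, with no common direction. *MYF6*, which acts late in fiber formation, had 26, 32, 10 and 8 counts in PROL and 2, 20, 0 and 0 in DIFF. *PAX7* was not analysed here. Among 15 genes of myostatin, activin and TGF-β signaling, 2 rose (13.3%) and 4 fell (26.7%), against 16.1% and 12.8% of all genes tested. *ID1*, which blocks the DNA binding of the MYOD1 family, fell from 712, 637, 488 and 551 CPM to 119, 92.1, 92.1 and 93.9 CPM, a log2 fold change of −2.59 ± 0.11 (adjusted p = 1.3e-11). *TGFB3* and *TGFB1*, which encode ligands of the same receptors, moved apart. *TGFB3* rose from 2.53–12.3 CPM to 87.4–105 CPM (3.76 ± 0.28) and *TGFB1* fell from 146–212 CPM to 75.4–87.8 CPM (−1.10 ± 0.13). The corepressor *TGIF1* fell with a log2 fold change of −0.71 and *ID2*, a relative of *ID1*, with −0.69, although its states overlapped, with 115 and 118 CPM in the PROL and DIFF libraries of 17DMD. The other gene that rose was *MSTN*, which encodes myostatin, a brake on muscle growth, at 3.69, 8.85, 10.5 and 3.94 CPM and 15.4, 15.2, 14.4 and 21.3 CPM (log2 fold change 1.31 ± 0.43, adjusted p = 0.021). Its call ended without 14DMD or 17DMD (adjusted p = 0.0784 and 0.127). *ID2* and *MSTN* were chosen after their values were seen.

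Most sarcomere genes rose. Of 16 filament genes tested, 13 rose and 1 fell, with a median log2 fold change of 1.49. In 15 of the 16 the states did not overlap, against 40.6% of all genes tested. *ACTA1*, the actin of skeletal thin filaments, stood at 694, 818, 723 and 318 CPM in PROL and 3089.8, 4064, 3998 and 3274 CPM in DIFF, a log2 fold change of 2.55 ± 0.21 (adjusted p = 0.000136). Its PROL library of 17DMD was well below the other 3. *MLC2V*, the listed name of the slow and ventricular regulatory myosin light chain, went from 325, 282, 315 and 165 CPM to 1141, 1360.5, 1363 and 1436 CPM, and *TNNT2*, the troponin T of embryonic muscle and heart, from 84.9, 111, 143 and 53.8 CPM to 466, 373, 429 and 571 CPM. Their log2 fold changes were 2.30 ± 0.22 and 2.24 ± 0.34. *ACTC1*, the cardiac actin that developing skeletal muscle expresses, rose by 1.69, the slow troponins *TNNI1* and *TNNT1* by 1.51 and 1.46, and *TNNC1*, which binds calcium in slow and cardiac muscle, by 1.02. The fast light chains were abundant in both states. *MYLPF* went from 3466, 4226, 4025 and 2316 CPM to 8298, 7123, 6900.2 and 9216 CPM and *MYL1* from 2314, 2569.9, 2176 and 1488 CPM to 5339.5, 4141, 3711 and 5444 CPM, so that their changes of 1.18 ± 0.23 and 1.12 ± 0.21 on the log2 scale came on top of high PROL levels. Without 14DMD, 8 filament genes were called higher in place of 13. Without 14DMD the calls of *TNNT2*, *MYL1*, *MYLPF*, *TNNI1* and *TNNC1* ended, with adjusted p values of 0.0869, 0.0776, 0.115, 0.13 and 0.194 and log2 fold changes of 2.16, 1.08, 1.14, 1.49 and 1.07, and without 16DMD those of *MYLPF*, *TNNI1* and *TNNC1* did (0.0524, 0.0944 and 0.0987). Actin, tropomyosin and myosin paralogs are near-identical over long stretches, and the split of reads among them depends on the counting and is uncertain.

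Myosin heavy chains were sparse. *MYH1*, a fast adult isoform, rose from 35.7, 40.5, 34.9 and 10.5 CPM to 144, 87.4, 95.02 and 44.1 CPM (1.60 ± 0.21). *MYH7*, the slow isoform, was not called (log2 fold change 1.15 ± 0.52, adjusted p = 0.084), nor was *CFL2*, the cofilin of muscle, which stood at 1654–1692 CPM in PROL and 2226–2486 CPM in DIFF and missed the fold limit at 0.49. Tropomyosins split by gene. *TPM2* went from 1796, 2163, 2003 and 2114 CPM to 7719.5, 9720.5, 10915 and 8421 CPM (2.17 ± 0.09, adjusted p = 3.23e-11) and *TPM1* from 762–1139.5 CPM to 2828–3876 CPM (1.89 ± 0.09). *TPM3* was the 1 filament gene that fell, from 202, 164, 198 and 173 CPM to 54.6, 95.6, 102 and 101 CPM (−1.09 ± 0.17). The PROL library of 17DMD was the lowest of the 4 PROL libraries in 12 of the 16 filament genes, and the DIFF library of 17DMD the highest of the 4 in 9.

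At the Z-disc, 10 of 11 genes rose and 1 fell (median log2 fold change 1.68). *CARP*, the listed name of *ANKRD1*, a stretch-responsive repeat protein of the sarcomere, went from 372, 404, 431 and 349 CPM to 2122, 2597, 2549.6 and 2480.2 CPM, a log2 fold change of 2.64 ± 0.09 (adjusted p = 2.6e-12). *CSRP3*, a LIM protein that senses stretch, rose from 12.3, 15.2, 20.95 and 3.94 CPM to 77, 67.6, 63.3 and 96.8 CPM, again with 17DMD lowest in PROL and highest in DIFF. *ACTN2*, the α-actinin that crosslinks thin filaments, rose by 1.28, *MYOT*, a partner of actinin, by 1.68, and *FHL1C* by 1.75 on the log2 scale. Without 14DMD *ACTN2* was not called (adjusted p = 0.0935). *DES*, the muscle intermediate filament, had the smallest rise of the list, from 1412, 1101, 930.0 and 1232 CPM to 1805, 2078, 2203 and 2134 CPM (0.82 ± 0.12). The ubiquitin ligases *TRIM63* and *TRIM55*, which bind the sarcomere, rose by 1.68 and 1.63. *TRIM55* overlapped between the states, since the DIFF library of 16DMD had 35.99 CPM and the PROL library of 15DMD 39.2 CPM. *POPDC3*, a membrane protein of the Popeye family, was the gene that fell, from 68.9, 97.3, 84.97 and 81.3 CPM to 14, 50.1, 33.1 and 59.8 CPM.

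Genes of excitation and of the dystrophin complex did not pass the test. Of 8 genes of excitation and calcium handling, 0 were called in the quasi-likelihood test, with a median log2 fold change of 0.43, although 5 had an unadjusted p under 0.05. DESeq2 called 0 as well. *RYR1*, the release channel of the sarcoplasmic reticulum, had 10, 12, 14 and 4 counts in PROL and 26, 18, 16 and 12 in DIFF. *SLN*, which encodes sarcolipin, an inhibitor of the calcium pump, stood at 29.5, 64.5, 48.9 and 14.4 CPM in PROL and 32.2, 113, 69.1 and 21.3 CPM in DIFF. The spread between animals was larger than the change within them, although *SLN* was higher in DIFF in 4 of 4 animals (log2 fold change 0.51 ± 0.20, adjusted p = 0.0553). It was called when 14DMD was left out (0.61, adjusted p = 0.0469). The calcium pumps *ATP2A1* and *ATP2A2* had log2 fold changes of 0.67 ± 0.44 and 0.35 ± 0.16, and the calcium channel subunit *CACNA2D1*, at 0.59 with an adjusted p of 0.00259, stayed just under the fold limit and passed it without 15DMD or 16DMD (0.64 and 0.66).

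Of 5 genes of the dystrophin-associated complex, 0 were called in the quasi-likelihood test (median 0.07) and 0 by DESeq2, and 2 had an unadjusted p under 0.05. *SGCA*, the sarcoglycan that is particular to striated muscle, stood at 98.4, 73.3, 139.7 and 98.4 CPM in PROL and 64.4, 117, 114 and 108 CPM in DIFF, and moved up in 15DMD and 17DMD and down in the other 2 animals (log2 fold change −0.03 ± 0.19, adjusted p = 0.912). *SGCE* had a log2 fold change of 0.02 ± 0.13 and *SGCB* of 0.07 ± 0.34. *SGCD* was higher in DIFF in all 4 animals, at 0.50 ± 0.14 with an adjusted p of 0.0097, and remained under the fold limit. *DMD* itself stood at 14.8, 17.7, 18.6 and 19.7 CPM in PROL and 33.6, 27.98, 21.6 and 25.6 CPM in DIFF. All 4 DIFF libraries were above the PROL libraries, but at 24 to 48 counts a library the change of 0.60 ± 0.28 did not pass (adjusted p = 0.0958).

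The contractile genes of smooth muscle and pericytes rose. Of 10 tested, 9 rose and none fell, and the median log2 fold change was 1.73. *CNN1*, which encodes calponin, an actin-binding inhibitor of myosin, stood at 4.92, 10.1, 12.8 and 10.5 CPM in PROL and 287, 533, 603 and 236 CPM in DIFF, a log2 fold change of 5.40 ± 0.18 (adjusted p = 2.6e-12). The DIFF libraries of 15DMD and 16DMD were well above those of 14DMD and 17DMD. *ACTA2*, the smooth muscle actin, was among the most counted transcripts of the DIFF libraries. It went from 737, 820.4, 890.4 and 873 CPM to 12078, 11983, 12195 and 10338 CPM, a log2 fold change of 3.80 ± 0.10 (adjusted p = 2.29e-13). *MYL9*, the regulatory light chain of smooth muscle myosin, rose from 111, 125, 184 and 157 CPM to 1046, 1400.1, 1586 and 931 CPM (3.09 ± 0.13) and *TPM4*, a cytoskeletal tropomyosin, from 341–439.9 CPM to 885–1070.2 CPM (1.27 ± 0.09). *KCNMA1*, a potassium channel of smooth muscle, was the member that was not called (−0.37 ± 0.37, adjusted p = 0.464). It was chosen after its values were seen. In these bulk libraries a larger share of cells that express a gene and more RNA of that gene per cell cannot be told apart.

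Extracellular matrix genes changed widely and in both directions. Of 24 tested, 14 rose and 6 fell (median 0.99). *MFAP5*, a glycoprotein of microfibrils, went from 25.8, 26.5, 41.9 and 35.4 CPM to 286, 469.8, 574 and 662 CPM, a log2 fold change of 3.90 ± 0.14 (adjusted p = 2.82e-12). *ASPN*, a small proteoglycan that binds TGF-β, also differed between animals. It stood at 43.1, 118, 158 and 44.6 CPM in PROL and 239, 1077, 1062 and 245 CPM in DIFF, with 15DMD and 16DMD highest in both, and the within-animal log2 differences were 2.43, 3.17, 2.73 and 2.42. *COL5A2*, which sets the width of collagen fibrils, rose from 217–354 CPM to 1178–1768 CPM, *FBN1*, the fibrillin of microfibrils, from 59.4–86.1 CPM to 286–385 CPM, and *COL1A2*, a chain of collagen I, from 2924–3418 CPM to 7598–10308 CPM. Among the genes that fell was *EFEMP1*, a fibulin of elastic fibers, from 93.5, 89.7, 68.7 and 80.03 CPM to 56, 40.8, 38.9 and 42.7 CPM (−0.91 ± 0.17, adjusted p = 0.000481). *SPP1*, which encodes osteopontin, rose from 38.1, 36.7, 66.3 and 44.6 CPM to 102, 159.7, 329.7 and 55.5 CPM (1.60 ± 0.32). The 16DMD library was the highest in both states, and the states overlapped. *SPP1* was not called without 14DMD (adjusted p = 0.0731).

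Adhesion and cytoskeletal genes were called about as often as genes at large, of which 16.1% rose and 12.8% fell. Of 15 genes of integrins and adhesion, 4 rose (26.7%) and 1 fell (6.67%). *VCL*, which encodes vinculin, the link from integrins to actin, rose from 293, 384, 332 and 453 CPM to 949, 1156, 1312 and 878 CPM (1.55 ± 0.15), the mesenchymal cadherin *CDH11* by 0.98 and the integrin-associated protein *CD47* by 0.67. *TES*, a focal adhesion protein, fell by 1.15. The call of *CDH11* ended without 14DMD or 16DMD (adjusted p = 0.159 and 0.164), and *CD47* was under the fold limit without 16DMD (0.56). Of 24 genes of actin and microtubule dynamics, 5 rose (20.8%) and 3 fell (12.5%). The actin-severing protein destrin, *DSTN*, went from 662, 622, 733 and 796 CPM to 2054, 2515, 3297 and 2408 CPM (1.84 ± 0.11, adjusted p = 8.95e-10) and *TMSB4X*, which sequesters actin monomers, from 5141–6474 CPM to 12219–14253 CPM (1.22 ± 0.09). *MSN*, which ties actin to the membrane, rose by 1.02. *STMN1*, which destabilizes microtubules, fell from 752–839 CPM to 233–340.1 CPM.

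Secreted growth factors gave some of the largest rises. Of 11 insulin and IGF genes, 5 rose (45.5%) and 1 fell (9.09%), against 16.1% and 12.8% of all genes tested. *IGF1*, the growth factor of muscle, was nearly absent in PROL at 1.23, 5.06, 1.16 and 1.31 CPM, which is 2, 8, 2 and 2 counts, and stood at 157, 141, 108 and 134 CPM in DIFF. With a log2 fold change of 5.90 ± 0.30 (adjusted p = 2.31e-10) it had the largest rise of the genes called, and it rose in every animal, by 5.96, 4.47, 5.47 and 5.69 on that scale. *IGFBP7*, a secreted IGF-binding protein, went from 1575, 2384, 3210.2 and 2292 CPM to 7528, 8518, 12010.0 and 8061 CPM (1.94 ± 0.10). The transcription factor *FOXO1*, which insulin signaling restrains, rose by 1.07, and *IGFBP6*, which prefers IGF2, fell from 339–672 CPM to 93.6–181 CPM (−1.81 ± 0.16). *BDNF*, a neurotrophin, had 0, 14, 30 and 6 counts in PROL and rose to 43.4, 120.1, 190.0 and 35.6 CPM in DIFF, with 15DMD and 16DMD highest (log2 fold change 3.74 ± 0.33, adjusted p = 6.09e-07). *PLAU*, which encodes urokinase, rose from 159–204 CPM to 419–464 CPM and tissue factor, *F3*, from 14.8–41.9 CPM to 72.8–134 CPM. The immediate-early factor *C-JUN* fell by 1.05 on the log2 scale. These 3 and *BDNF* belong to a list of 16 growth factors, proteases and immediate-early genes, of which 8 rose and 2 fell.

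Other genes with large rises were *RLN*, the listed name of the hormone relaxin, from 30.8, 16.4, 22.1 and 11.8 CPM to 301, 535, 226 and 492 CPM (4.16 ± 0.43), and *RAMP1*, a partner of the receptors of calcitonin-like peptides, from 7.38, 24.02, 29.1 and 2.62 CPM to 231, 252, 272 and 323 CPM (4.13 ± 0.57). *RAMP1* was lowest in the PROL libraries of 14DMD and 17DMD and differed little among the DIFF libraries, and its adjusted p was 0.00658, or 0.067 without 14DMD. *CLDN1*, a tight junction protein, rose from 8.85–17.1 CPM to 125–203 CPM. Among the Notch and Wnt genes, 3 of 6 rose (50%) and none fell, against 16.1% and 12.8% of all genes tested. *SFRP2*, a secreted Wnt modulator, went from 407, 391, 383 and 363 CPM to 2727, 1932, 1643 and 2857 CPM (2.52 ± 0.14, adjusted p = 7.76e-08), *DKK3* from 41.7–54.7 CPM to 248–275 CPM, and *HEY2*, a target of Notch, from 10, 2, 8 and 0 counts to 42, 16, 18 and 18 counts.

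Of 12 genes of the hypoxia response, 8 rose and 1 fell (median 1.37). *ANGPTL4*, a secreted inhibitor of lipoprotein lipase, went from 8.61, 13.9, 10.5 and 7.87 CPM to 319, 373, 256 and 310.2 CPM, a log2 fold change of 4.92 ± 0.17 (adjusted p = 2.31e-12). *PDK1*, a kinase that inhibits pyruvate dehydrogenase, rose from 23.4, 39.2, 46.6 and 40.7 CPM to 105, 146, 163 and 131 CPM (1.87 ± 0.16), the peptide hormone *ADM* by 1.91 and *DDIT4*, an inhibitor of mTOR, by 1.35. The transferrin receptor *TFRC*, chosen after its values were seen, was the member that fell (−0.68 ± 0.26). Leaving out any 1 animal ended this call, with adjusted p values of 0.0864 to 0.135. Of 10 genes of sterol and fatty acid synthesis, 6 rose and none fell (median 1.36), although 1 was called lower with RLE factors, with library size alone, without the animal block or without 15DMD. *SQLE*, which makes squalene epoxide, went from 50.4, 56.9, 41.9 and 69.5 CPM to 182, 175, 158 and 194 CPM (1.70 ± 0.14), *FDPS* from 164–212 CPM to 528–608 CPM and *CYP51* from 41.8–74.5 CPM to 189–249 CPM, and *HMGCS1*, at the start of the pathway, rose by 1.53.

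Of 19 genes of glycolysis and glycogen, 3 rose and 3 fell, 15.8% each way against 16.1% and 12.8% of all genes tested. *ENO3*, the enolase of adult muscle, fell from 971, 904, 533 and 925 CPM to 115, 73.4, 67.7 and 62.6 CPM, a log2 fold change of −3.40 ± 0.14 (adjusted p = 5.72e-10). The 16DMD library was the lowest in PROL. *LDHB* fell from 2112–2470.0 CPM to 1419–1572 CPM and *ALDOC*, a brain aldolase, rose by 1.62. *LDHB* was under the fold limit without 16DMD (−0.58). Of 32 genes of the respiratory chain and ATP synthase, 0 were called by edgeR (median −0.17) and 0 by DESeq2, while 17 had an unadjusted p under 0.05 with log2 fold changes between −0.52 and 0.67 over the list. Of 22 genes of the citric acid cycle and fatty acid oxidation, 2 rose (9.09%) and 0 fell, under the shares of all genes tested. *CPT1A*, which admits fatty acids to the mitochondrion, was 1 of the 2 (1.21 ± 0.22).

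Cytosolic ribosomal proteins stayed under the fold limit. Of 43 tested, 0 were called by edgeR and 0 by DESeq2, with log2 fold changes between −0.54 and 0.22 (median −0.14). For 15 of them the unadjusted p was under 0.05, and for 12 the adjusted p, without reaching the fold limit. Of 16 proteasome genes, 0 were called by edgeR and 0 by DESeq2, and 7 had an unadjusted p under 0.05. Of 18 translation factors *EIF4EBP3*, an inhibitor of cap-dependent initiation, rose (0.82 ± 0.13). Of 25 chaperone genes, 8 fell (32%) and 1 rose (4%), against 12.8% and 16.1% of all genes tested. *PDIA4* and *HSP90B1*, which fold proteins in the endoplasmic reticulum, fell from 367–437 CPM to 186–213 CPM and from 644–758 CPM to 344–467 CPM, and the mitochondrial pair *HSPD1* and *HSPE1* fell with log2 fold changes of −0.68 and −0.69. *DNAJA4*, a cofactor of HSP70 chosen after its values were seen, was the member that rose (1.60 ± 0.49), although not without 16DMD (adjusted p = 0.0866). Genes of autophagy and the lysosome rose in 9 of 24 cases (37.5%, against 16.1% of all genes tested) and fell in none. *OPTN*, an autophagy receptor, went from 132, 131, 129 and 139 CPM to 364, 325, 382 and 363 CPM (1.42 ± 0.10), and *MAP1LC3A*, *CTSB* and *CTSH* rose by 1.13, 0.70 and 0.86.

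Among 22 antioxidant enzymes and selenoproteins, 4 rose and 4 fell, 18.2% each way, which is near the shares of all genes tested. *SELM*, a selenoprotein of the endoplasmic reticulum, rose from 70.1, 97.3, 97.8 and 83.97 CPM to 439.6, 541, 551 and 439.7 CPM (2.49 ± 0.10, adjusted p = 2.03e-11) and glutathione peroxidase *GPX1* from 901–1138 CPM to 2279–2576 CPM. *PRDX6*, which reduces oxidized lipids, fell from 808, 718, 819 and 622 CPM to 137, 175, 184 and 175 CPM (−2.15 ± 0.11), and *GSTO1* fell by 1.49 on the log2 scale. *ASNS*, asparagine synthetase, was the 1 of 8 amino acid stress genes that was called, at 554–707 CPM and 1164–1539.6 CPM (1.08 ± 0.08). That is 12.5% of the list, against 28.9% of all genes tested. For 4 others the adjusted p was under 0.05 without reaching the fold limit. The summed level of the list went from 2159–2724 CPM in PROL to 3291–3920 CPM in DIFF, without overlap.

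Immune genes were divided. Of 15 inflammatory genes, 5 rose and 5 fell, 33.3% each way against 16.1% and 12.8% of all genes tested. *PTX3*, a soluble pattern receptor, went from 18.5, 10.1, 22.1 and 23.6 CPM to 525, 513, 353 and 670.2 CPM, a log2 fold change of 4.76 ± 0.20 (adjusted p = 5.19e-09), and the chemokine *CXCL14* from 47.99, 63.2, 134 and 44.6 CPM to 441, 647, 999 and 827 CPM (3.37 ± 0.20). *IL18* and *IL33*, cytokines of the IL-1 family, fell. *IL18* went from 763, 670.0, 995 and 396 CPM to 295, 267, 338 and 212 CPM (−1.31 ± 0.11) and *IL33* from 202, 182, 233 and 286 CPM to 86.8, 47.8, 35.99 and 62.6 CPM (−1.99 ± 0.20). Of 19 genes of the interferon response and antigen presentation, 5 rose (26.3%) and 2 fell (10.5%), against 16.1% and 12.8% of all genes tested. *IFIT1*, which binds viral RNA, had 6, 6, 6 and 4 counts in PROL and 20, 46, 10 and 28 in DIFF, and *USP18* and *IRF1* rose by 1.49 and 1.26, all at low counts. *IRF1* was not called without 15DMD (adjusted p = 0.0536). The class I gene *SLA-3* fell from 160.0, 102, 122 and 114 CPM to 65.8, 40.8, 79.2 and 45.5 CPM (−1.14 ± 0.17). Its paralogs share sequence, so its counts are uncertain. *CLU*, which encodes clusterin, was the 1 of 5 complement genes called (1.04 ± 0.10), 20% against 28.9% of all genes tested.

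**Figure D3:**
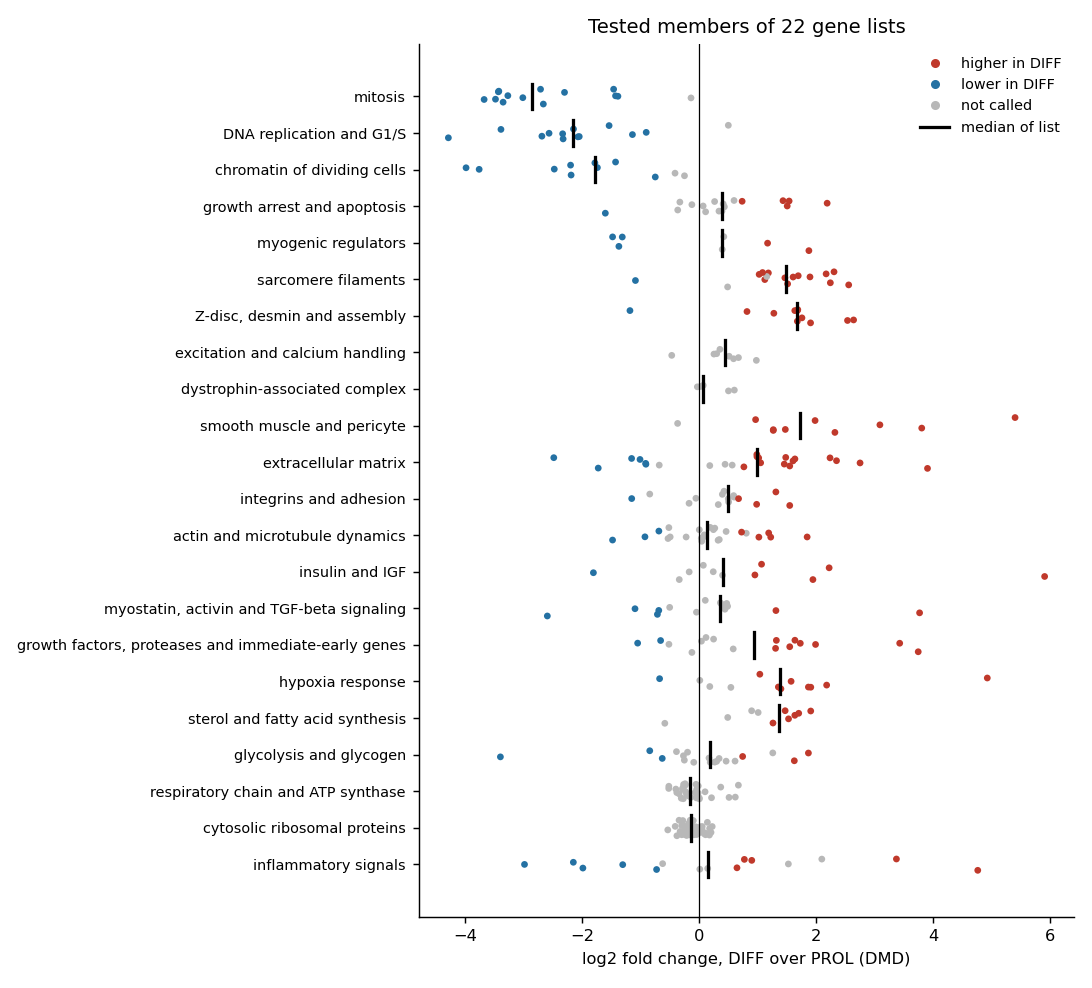
Log2 fold change of DIFF over PROL (horizontal axis) for every tested member of 22 gene lists, 1 point per gene, coloured where the gene rose or fell, with a black bar at the median of each list. Mitosis, DNA replication and chromatin lie to the left, sarcomere, Z-disc, smooth muscle, sterol and hypoxia genes to the right, and ribosomal proteins and the respiratory chain around 0.

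Markers of other cell types were examined with the same test. Of 12 fibroblast markers counted, 9 were tested. Of the 9, 6 rose (66.7%) and 2 fell (22.2%), against 16.1% and 12.8% of all genes tested. Their summed level was 4699 to 5125 CPM in the PROL libraries and 13312 to 15509 CPM in the DIFF libraries, without overlap, and they share *MFAP5*, *FBN1*, *SFRP2*, *COL1A2* and others with the matrix and Wnt lists above. *DCN*, the proteoglycan decorin, went from 176, 277, 225 and 223 CPM to 413, 368, 305 and 452 CPM, *LUM*, lumican, was not called (0.18 ± 0.19, adjusted p = 0.48), and *DPP4* fell (−1.27 ± 0.27). *DCN* was at the fold limit without 14DMD (0.60) and not called. *CD34* had 2 counts in 1 PROL library and 2 in 1 DIFF library. The part that a change in cell composition may have in the matrix and smooth muscle genes was not tested. Of 7 blood cell markers counted, *ITGB2*, *HBB*, *CD3E* and *CD79A* had 0 counts in all 8 libraries, and *CD14* fell (−0.73 ± 0.25), a call that ended without 15DMD or 16DMD (adjusted p = 0.143 and 0.0819). The summed level of the list was 33.2 to 53.5 CPM in PROL and 30.8 to 35.6 CPM in DIFF. For a gene at 0, a limit of 3 counts in a DMD library corresponds to 1.68 to 2.09 CPM before TMM scaling. Of the endothelial markers, *VWF* had 2 counts in 1 of the 8 libraries and *PECAM1*, below the limit for a test, had 2, 0, 4 and 6 counts in PROL and 24, 14, 8 and 10 in DIFF. *ERG* and *RAMP2*, the 2 that were tested, were not called by edgeR or DESeq2 (0.54 ± 0.29 and 0.42 ± 0.46), and 0 had an unadjusted p under 0.05. The 6 endothelial markers together stood at 22.1 to 41.9 CPM in PROL and 44.3 to 57.4 CPM in DIFF.

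Of 7 neural and Schwann cell markers counted, 3 had 0 counts in all 8 libraries, *SOX10* and *MBP* among them, while *GAP43*, a growth cone protein, fell from 51.7, 51.8, 46.6 and 36.7 CPM to 7.00, 8.16, 12.96 and 9.96 CPM (−2.30 ± 0.28). *NEFL*, a neurofilament, fell from 23.4, 10.1, 33.8 and 5.25 CPM to 7.00, 1.17, 12.96 and 2.85 CPM (−1.67 ± 0.42). The summed neural level went from 44.6–81.5 CPM in PROL to 11.7–25.9 CPM in DIFF. The adipocyte markers *ADIPOQ* and *LPL* were at 0 in all 8 libraries, and *CIDEA* and *PLIN2*, which coat lipid droplets, rose (1.23 ± 0.19 and 0.66 ± 0.14), *PLIN2* under the fold limit without 14DMD (0.51). Of the markers of SCs and myoblasts, *PAX7*, *CDH15*, *NCAM1* and *ITGA7* were not analysed here. *ITGB1*, 1 of the antigens used for sorting, stood at 4123–5755 CPM in PROL and 7267–8739 CPM in DIFF and was not called at a log2 fold change of 0.60 ± 0.09, just under the fold limit, and was called without 15DMD or 17DMD (0.65 and 0.61). *CD82* was lower in DIFF in all animals but 17DMD and did not pass (−0.84 ± 0.36, adjusted p = 0.132), but was called without 17DMD (−1.24). With *DES* and the sarcomere genes at the levels above, the libraries held transcripts of the muscle lineage in both states.

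For 3 genes 1 state had no count. *PDZK1IP1*, a small membrane protein, had 0 counts in the PROL libraries and 36 in the DIFF libraries together, and was at least 12.3-fold higher when the PROL sum was set to a limit of 3 counts over the 4 libraries. *GALNTL1*, a glycosyltransferase, had 0 and 20 counts, at least 6.85-fold higher, and *SOCS2*, a feedback inhibitor of cytokine receptors, had 28 and 0 counts, at least 9.09-fold lower. All counts in the table are even numbers. With counts divided by 2 these bounds would be 6.16, 3.42 and 4.54. Without 1 animal, an alternative chosen after seeing the data, the bounds from full counts fell as low as 5.31-fold for *PDZK1IP1*, without 16DMD, whose DIFF library held 20 of the 36 counts, 4.08-fold for *GALNTL1* and 6.03-fold for *SOCS2*.

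The last question was where this response differed from that of WT SCs. In WT, 640 of 1921 genes were called (33.3%), 358 higher (18.6%) and 282 lower (14.7%). The difference of the responses, DMD DIFF over PROL minus WT DIFF over PROL, was tested in all 16 libraries and called in 492 of 2030 genes (24.2%), in 230 toward a higher response in DMD (11.3%) and in 262 toward a lower one (12.9%). That split depends on the scaling. With library size alone in place of TMM factors, the median log2 response over all genes tested was −0.31 in WT and −0.06 in DMD, the median difference was 0.25, and the calls became 401 and 139. Of 1811 genes tested in all 3 comparisons, 506 were called in DMD. Of these, 232 were also called in WT in the same direction, 35 were called in the opposite direction, and in 220 (43.5%) the difference was called. In all of the 35 the difference was called.

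Smooth muscle genes had a higher response in DMD than in WT. The WT response of the same list had 2 called higher and 1 lower of 10 tested (median −0.39), or 1 higher and 5 lower with library size alone (median −0.73). The difference was called for 8 of 11 genes, all higher in DMD, and for the same number with library size alone. *CNN1* went from 20.9 ± 8.98 to 67.7 ± 59.98 CPM in WT (mean ± SD, n = 4), and the difference was 3.93 ± 0.51 on the log2 scale (adjusted p = 0.000156). *ACTA2* stood at 752 ± 208 and 997 ± 414 CPM in WT, a difference of 3.45 ± 0.14, and the difference was 3.07 ± 0.22 for *MYL9* and 1.74 ± 0.13 for *TPM4*. By count of members, sarcomere genes went the other way. The difference was called for 7 of 16 filament genes toward a lower response in DMD, and with library size alone for 6. Toward a higher response it was called under both scalings for *TPM2* (2.10 ± 0.14) and *TPM1* (1.60 ± 0.21). The summed level of the filament list nevertheless rose from a median of 15740 CPM in PROL to 43072 CPM in DIFF in DMD. In WT it went from 3926 to 9766 CPM, so the count of members does not describe the sum. The starting levels also differed. *ACTA1* went from 44.6 ± 11.3 to 1063 ± 243 CPM in WT and from 638 ± 220.1 to 3606 ± 497 CPM in DMD, so that DMD was higher in both states while the fold change was smaller (difference −2.01 ± 0.26, adjusted p = 0.000148). The differences were −2.37 ± 0.24 for *MYL1*, −2.43 ± 0.34 for *MYLPF*, −2.32 ± 0.57 for *TNNC1* and −3.05 ± 0.73 for *ACTN2*. Of 8 myogenic regulators, the difference was called higher in DMD for 1 and lower for 4, or 1 and 3 with library size alone. *MYOG*, at 1.01 ± 1.22 and 5.38 ± 4.39 CPM in WT, was not among those called (−0.48 ± 0.81, adjusted p = 0.714), at low WT counts.

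**Figure D4:**
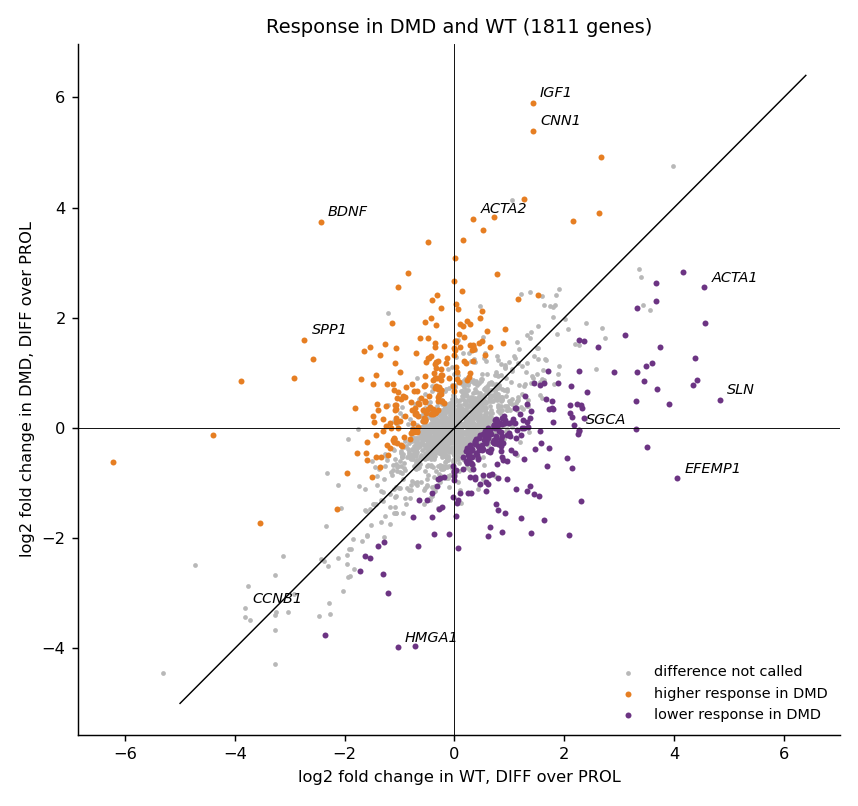
Log2 fold change of DIFF over PROL in DMD (vertical axis) against that in WT (horizontal axis) for the 1811 genes tested in all 3 comparisons. Coloured points are genes whose difference was called, and the line marks equal responses. *CNN1*, *ACTA2* and *IGF1* lie above the line, *BDNF* and *SPP1* rose in DMD and fell in WT, and *EFEMP1*, *SLN* and *SGCA* lie below it.

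Calcium handling and the dystrophin complex, in which 0 genes were called in DMD, held genes that were called in WT. Of 7 genes of excitation and calcium handling tested in WT, 2 rose and 2 fell, and the difference was called higher in DMD for 1 of 8, *ATP2A2* (1.06 ± 0.21), and lower for 2, *SLN* and *CACNA2D1* (−0.70 ± 0.26, adjusted p = 0.0473). The call of *CACNA2D1* ended in 10 alternative fits, library size alone and DESeq2 among them (adjusted p = 0.06 to 0.236). *SLN* went from 0.853 ± 1.06 to 29.98 ± 7.39 CPM in WT, and the difference was −4.32 ± 0.57 (adjusted p = 9.44e-06). Of 5 genes of the dystrophin complex, 4 rose in WT, or 3 with library size alone, and the difference was called lower in DMD for 2. *SGCA* rose from 9.27 ± 3.34 to 44.4 ± 6.69 CPM (2.27 ± 0.30), a difference of −2.30 ± 0.34 (adjusted p = 3.77e-05), and *SGCE* from 155 ± 16.7 to 398 ± 36 CPM (1.35 ± 0.11), a difference of −1.33 ± 0.17. In DMD PROL *SGCA* stood at 102 ± 27.5 CPM, above both WT states. For *DMD*, the WT response was 1.56 ± 0.46 and the difference −0.97 ± 0.50 was not called (adjusted p = 0.164). The division genes fell in both genotypes, with 12 of 14 mitosis genes called lower in WT. Of 15 mitosis genes tested for a difference, *CKS1B*, a subunit of cyclin-dependent kinases, was the 1 called (−1.20 ± 0.18), while with library size alone 2 were called higher and 1 lower in DMD. For 13 genes of DNA replication and the G1/S transition, the difference was called higher for 1 and lower for 4, or for 2 and 0 with library size alone in edgeR. *HMGA1* fell further in DMD (difference −2.96 ± 0.14), as did *HMGB2* (−1.41 ± 0.16). The summed fibroblast markers stood at 10868 to 14699 CPM in WT PROL and at 32842 to 36623 CPM in WT DIFF, above the DMD libraries of the same state, and the part of such a difference in these responses was not tested.

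Secreted factors also differed. *IGF1* rose in WT from 20.04 ± 23.7 to 43.8 ± 17.2 CPM (1.42 ± 0.40, adjusted p = 0.0117), a call that ended without the animal block or without 1 WT animal (adjusted p = 0.26 and 0.0655), and the difference was 4.53 ± 0.66 (adjusted p = 0.000146). *BDNF* fell in WT from 53.5 ± 38.3 to 9.70 ± 6.15 CPM (−2.44 ± 0.35) and rose in DMD, a difference of 6.18 ± 0.55 (adjusted p = 7.66e-07). *SPP1* and the monocyte chemokine *CCL2* did likewise. *SPP1* had a WT response of −2.74 ± 0.47 and a difference of 4.36 ± 0.62, and *CCL2*, which rose from 354, 429.8, 347 and 631 CPM to 1037, 659.9, 648 and 941 CPM in DMD (0.90 ± 0.15), had a WT response of −2.92 ± 0.16 and a difference of 3.81 ± 0.28. *CXCL14* gave a difference of 3.84 ± 0.41 and *VEGFA*, the endothelial growth factor, chosen after its values were seen, of 3.04 ± 0.40. In the other direction, *EFEMP1* rose in WT from 35.6 ± 22.4 to 564 ± 147 CPM and fell in DMD, a difference of −4.98 ± 0.25 (adjusted p = 1.18e-10). *KAZALD1*, a secreted IGF-binding protein relative, fell in DMD (−1.94 ± 0.25) and rose in WT (2.09 ± 0.16), a difference of −4.04 ± 0.28, and *IGFBP6* had a WT response of 0.65 ± 0.17 and a difference of −2.46 ± 0.29. The WT call of *IGFBP6* ended in 4 alternative fits, library size alone in edgeR among them (0.30, adjusted p = 0.171). Ribosomal proteins gave 24 of 43 called differences toward a lower response in DMD and 1 toward a higher one, but 7 and 1 with library size alone, and with that scaling the WT calls of this list went from 14 to 2.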

How the data were processed

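RNA of 8 DMD and 8 WT cultures was sequenced by the authors from 3′ libraries primed with oligo-dT, each carrying a well barcode and unique molecular identifiers, in technical duplicates. Per the study's methods, reads were aligned to the pig genome susScr3 with STAR 2.7.10b, deduplicated by identifier with UMI-tools and counted per gene, and the submitters' processing notes also name bcl2fastq, FastQC, MultiQC and R 4.1.2. The annotation and the strand setting are not given in the sources used here, so that overlapping genes on opposite strands may share counts. The values deposited by the authors are raw counts of 3875 genes in 32 columns, of which 0 were left unused. All 124000 values are even numbers, for which the sources used here give no reason, and counts divided by 2 were tried as an alternative. Of the gene names, 3499 were current RefSeq symbols, 207 older ones and 169 unmatched.

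The 2 technical columns of each sample were summed. The test of these counts was that of edgeR 4.0.16 under R 4.3.3 (TMM factors, filterByExpr with a minimum count of 10 and a minimum total of 15, robust quasi-likelihood F-test, Benjamini-Hochberg adjustment over all genes tested) on the 8 DMD libraries with the animal as a block. The pairing comes from the titles, which name the animal, and the deviations of paired libraries from their group means correlated at 0.104 to 0.142 in 4 of 4 pairs. The WT response was fitted likewise, and the difference of responses in 1 fit of all 16 libraries. Calls needed an adjusted p below 0.05 together with a log2 fold change beyond 0.6 in either direction, and the SE is the log2 fold change divided by the root of F. With the animal as a block, the p-values rest on the spread of the DIFF minus PROL change among the 4 animals of a genotype. The test also shares information on that spread across genes. CPM used TMM factors over 16 libraries, and log2 differences within an animal used a prior count of 2. Intervals and limits at 0 cover counting error only.

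Alternatives were DESeq2 1.42.0, other scalings and filters, no animal block, single duplicates, other call limits and leaving out each animal. On simulated counts of the DMD comparison (1886 genes), 85% of 2-fold and 95% of 4-fold changes were recovered and 9 other genes were called, and on those of the difference (2030 genes) 61% and 86%, with 11 others. The simulation used the spread fitted to each gene in these data and an animal effect equal in both states. It changed 100 genes at each size, and its rates hold for these settings only.

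The comparison and the gene lists were chosen with earlier results of these data known. Genes named were the 12 largest called changes in each direction with a mean of at least 20 CPM and no overlap, up to 4 called members of each list by p, counted members of the muscle, division and marker lists, the 6 largest differences from WT in each direction, the 6 largest of those that moved opposite to WT, genes at 0 in 1 state and *RN18S*. Others are marked as chosen after their values were seen, and some genes that the rule names are not reported here. No sequence or coordinate is given, since no genome of this build was used here.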

Additional observations from a re-analysis of the deposited data

Results flagged for a closer look

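Of 312 sets of 4 CPM values, the 4 libraries of a state for a gene printed above, 21 held a library that stood apart by Dixon's test at the 95% level, 6.73%. Chance alone gives about 1 in 20. In DIFF, the library of animal 14DMD stood apart for *ID1* at 119 CPM against 92.1 to 93.9, *SGCA* at 64.4 CPM against 108 to 117 and *TPM3* at 54.6 CPM against 95.6 to 102 in the others. In PROL, the library of animal 14DMD stood apart for *PSIP1* at 442 CPM against 473 to 477 in the others. In DIFF, the library of animal 15DMD stood apart for *MYF6* at 11.7 CPM against 0 to 1.40 and *MYOT* at 58.3 CPM against 91.0 to 93.6 in the others. In PROL, the library of animal 15DMD stood apart for *ASF1B* at 26.5 CPM against 35.4 to 36.9, *GPX1* at 901 CPM against 1105 to 1138 and *IGF1* at 5.06 CPM against 1.16 to 1.31 in the others. In DIFF, the library of animal 16DMD stood apart for *DDIT4* at 501 CPM against 366 to 386, *DKK3* at 275 CPM against 248 to 249, *FDPS* at 528 CPM against 601 to 608, *FHL1C* at 485 CPM against 377 to 391, *TGFB1* at 87.8 CPM against 75.4 to 76.9 and *TXNIP* at 93.6 CPM against 79.3 to 81.1 in the others. In PROL, the library of animal 16DMD stood apart for *CCNA2* at 204 CPM against 245 to 253 and *ENO3* at 533 CPM against 904 to 971 in the others. In DIFF, the library of animal 17DMD stood apart for *ACTA2* at 10338 CPM against 11983 to 12195 and *MSTN* at 21.3 CPM against 14.4 to 15.4 in the others. In PROL, the library of animal 17DMD stood apart for *MAP1LC3A* at 147 CPM against 119 to 122 and *TNNC1* at 48.5 CPM against 86.0 to 89.8 in the others. As library properties, the 17DMD PROL library stood apart in its *RN18S* share, 20.4%, and in the chi-square per degree of freedom between its technical duplicates, 104 against 3.25 to 16.4 in the other 7 DMD libraries, and the 15DMD DIFF library in its total of 1781174 counts.

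Of 30 genes whose difference from the WT response is printed above, 28 were called in the test by edgeR of that difference over all 16 libraries. Many of the 30 were printed because this difference was large and called, so their count follows from the choice. Over all 2030 genes tested, the difference was called in 24.2%. Of the 28 called, 13 had the higher response in DMD. The log2 difference, DMD minus WT, was 6.18 for *BDNF*, 4.53 for *IGF1*, 4.36 for *SPP1*, 3.93 for *CNN1*, 3.84 for *CXCL14*, 3.81 for *CCL2*, 3.45 for *ACTA2*, 3.07 for *MYL9*, 3.04 for *VEGFA*, 2.10 for *TPM2*, 1.74 for *TPM4*, 1.60 for *TPM1* and 1.06 for *ATP2A2*. The other 15 had the lower response in DMD, with −4.98 for *EFEMP1*, −4.32 for *SLN*, −4.04 for *KAZALD1*, −3.05 for *ACTN2*, −2.96 for *HMGA1*, −2.46 for *IGFBP6*, −2.43 for *MYLPF*, −2.37 for *MYL1*, −2.32 for *TNNC1*, −2.30 for *SGCA*, −2.01 for *ACTA1*, −1.41 for *HMGB2*, −1.33 for *SGCE*, −1.20 for *CKS1B* and −0.70 for *CACNA2D1*. No technical or biological source of these differences was tested.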

How the results depend on the processing

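The count of called genes in DMD, 545, stayed within 1.5 times under all alternatives but a fold limit. With an absolute log2 fold change over 1 it was 347, 198 higher and 149 lower, and with the adjusted p alone the genes lower were 383. Without the animal block, that is, without the pairing, 536 genes were called, so the block changed the count little. DESeq2 called 506, RLE factors gave 542, library size alone 550, leaving out *RN18S* 543, all 16 libraries in 1 fit 555, counts divided by 2 505, a minimum count of 50 401, no filter 566 and the technical duplicates alone 474 and 456. Leaving out 1 animal gave 494 to 552 called genes. For WT, 394 genes were called with the fold limit of 1 in place of 640, and for the difference 307, of which 149 were lower in DMD. With library size alone, the difference was higher in 401 and lower in 139 genes in place of 230 and 262. The prior count of 8, an alternative chosen after seeing the data, gave 536 genes moving alike in all 4 animals, as did the prior count of 2. No called response or difference printed above changed sign. Of 131 genes printed above as called in DMD, 108 were called in every alternative fit, and 18 lost the call without 1 animal. Many printed genes were chosen by size of change or by p, so these counts do not describe all 545 called genes. All but 2 of the 28 called differences, *TNNC1* and *CACNA2D1*, remained called in every alternative fit.

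Low counts limit these data. With 1434476 to 1781174 counts in a DMD library, 1160 genes with a count in DMD were not tested, *MYOD1*, *MYF5* and *MYF6* among them. A p that misses the limit does not show that a gene did not change.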

Other observations

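Some lists whose members are named above also differed from the WT response by count. Of 16 growth factors, proteases and immediate-early genes, 10 had a called difference toward a higher and 3 toward a lower response in DMD, and with library size alone 10 and 1. In WT, 2 of 14 rose and 8 fell. Of 24 genes of actin and microtubule dynamics, the difference was called higher in 11 and lower in 1, and with library size alone in 15 and 1. Hypoxia genes gave 7 higher and 2 lower of 12, and 8 and 1 with library size alone. In WT, 3 of 12 rose and 3 fell, or 3 and 6 with library size alone. The summed level of the list nevertheless rose more in WT, from a median of 1502 CPM in PROL to 5095 CPM in DIFF. In DMD it went from 1384 to 2741 CPM, so the count of members does not describe the sum. In the other direction, 0 of 12 sterol and fatty acid synthesis genes and 0 of 9 complement genes had a higher and 3 of each a lower response in DMD under both scalings in edgeR. Interferon and antigen presentation genes rose in 13 of 23 cases in WT and fell in 1, or in 7 and 2 with library size alone, and the difference was called lower in DMD for 6 of 23 and higher for 1, or 4 and 2 with library size alone. Over all 2030 genes the difference was called in 11.3% toward higher and 12.9% toward lower.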
